A study of Mus musculus with 96 samples.

Results

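The comparison set mice with testes against mice with ovaries on the same XY- chromosome background, in the nucleus accumbens (NAc), a ventral striatal region of reward and motivation circuits. The mice belonged to the FCG model, in which Sry, the testis-determining gene, has been deleted from the Y chromosome (Y-) and returned as an autosomal transgene. Chosen by genotype label and region, 25 of the 96 libraries of the series entered: 12 from XY-Sry mice, which carry the transgene and have testes, and 13 from XY- mice, which lack it and have ovaries. The XY- group held 7 unstressed controls and 6 stressed mice, and the XY-Sry group 6 and 6. Stress was a subchronic variable schedule in which mice were restrained for 1 hour per session, with 3 sessions on alternating days over 6 days. Animals came from 3 cohorts, and each library was a different mouse. The groups were spread unevenly over the cohorts. Cohort 2 held 0 XY- and 1 XY-Sry stressed mice, and cohorts 1 and 3 each held 1 XY-Sry control. All 25 mice carried the Y- chromosome, so the groups differ by the transgene itself as well as by gonad, and these cannot be told apart. The sources used here do not give age, hormone levels or whether gonads were removed. The RNA came from tissue punches, in which fewer cells of a type and less RNA per cell cannot be told apart.

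Gonads act on the brain through testosterone, estradiol and progesterone, which bind nuclear receptors such as those encoded by Esr1, Esr2 and Pgr. The NAc consists largely of striatal projection neurons that carry dopamine receptors, with interneurons, glia and vessels between them. Type I interferons signal through factors such as STAT2 and IRF9 to promoters with interferon-stimulated response elements, and induce antiviral effectors, large GTPases and the MHC class I machinery that displays peptides at the cell surface. Microglia, astrocytes and neurons can all respond to interferon.

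The labels were first set against marker genes. Y-linked Ddx3y averaged 82.2 ± 5.63 CPM (reads scaled for library size by the TMM method) in the testes libraries (SD, n = 12) and 80.4 ± 9.12 in the ovaries libraries (SD, n = 13), and Xist lay between 0 and 2.99 CPM in all 25, so both groups had Y and lacked the Xist levels of XX cells. No value for Sry was analysed here, and no brain transcript checked the gonad itself. Of the 5 Y-linked genes and 7 genes of the X segment reported on the Y- chromosome that were tested, 0 passed in this comparison, with log2 fold changes from -0.27 to 0.06 and from -0.08 to 0.11. The striatal label was borne out by its markers: the dopamine receptor gene Drd1 lay between 134 and 296 CPM and Drd2 between 46.5 and 124 CPM. Summed CPM of 10 cortical excitatory neuron markers reached 125 to 946 in ovaries and 194 to 1160 in testes libraries, so punches differed in how much cortical signal they held. Libraries held 64.96 to 120.8 M counts, with a mean of 73.9 ± 4.67 M for ovaries and 83.5 ± 16 M for testes (SD).

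Across all measured genes, 1 of 19425 (0.00515%) passed at an adjusted p below 0.05 between testes and ovaries, with treatment and cohort in the model (edgeR quasi-likelihood test, Benjamini-Hochberg adjustment over all genes). This gene was Apol11b, an apolipoprotein L family member, and it was lower with testes. At an unadjusted p below 0.05, 1192 genes (6.14%) were on the lower side and 930 (4.79%) on the higher side. The genes next in order, up to rank 20, all had an adjusted p of 0.433. Of these 19, 16 had a log2 fold change below 0 with testes, and many belong to interferon and MHC class I pathways. In no gene did the 2 groups separate completely: 0 of 19425 (0%) had every testes library below, or every one above, all ovaries libraries.

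The promoters of genes on which the results turn are shown to let the interferon response element be seen beside the values. The 150 bases before the start are printed 5′ to 3′ on the gene's own strand, from RefSeq on GRCm38.p6. Capitals mark GAAA, any 2 bases and GAAA or, for the other strand, TTTC, any 2 bases and TTTC, the core of that element, and overlapping matches share capitals. Apol11b and Ube2l6 were the genes that passed a test, and the other 4 are antiviral effectors. All 4 had a match, so they do not stand for the whole list, where 15 of 36 with an entry had one. No expression value of Oas1a is given here. Where a gene had several entries, one with a match was shown if there was any.
Apol11b (chr15:77643287-77643436, minus strand): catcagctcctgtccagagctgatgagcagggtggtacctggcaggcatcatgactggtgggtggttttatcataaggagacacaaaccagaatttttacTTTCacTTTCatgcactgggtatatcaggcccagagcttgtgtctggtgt
Rsad2 (chr12:26456453-26456602, minus strand): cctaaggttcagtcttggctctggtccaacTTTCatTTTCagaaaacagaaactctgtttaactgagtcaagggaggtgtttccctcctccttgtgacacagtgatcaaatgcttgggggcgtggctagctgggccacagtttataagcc
Oas1a (chr5:120907526-120907675, minus strand): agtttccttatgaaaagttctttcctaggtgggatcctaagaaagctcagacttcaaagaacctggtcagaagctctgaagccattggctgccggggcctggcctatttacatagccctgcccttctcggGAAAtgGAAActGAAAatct
Isg15 (chr4:156200819-156200968, minus strand): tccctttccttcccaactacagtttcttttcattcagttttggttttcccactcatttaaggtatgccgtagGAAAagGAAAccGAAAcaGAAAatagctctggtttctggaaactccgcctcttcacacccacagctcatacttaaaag
Ifit1 (chr19:34640739-34640888, plus strand): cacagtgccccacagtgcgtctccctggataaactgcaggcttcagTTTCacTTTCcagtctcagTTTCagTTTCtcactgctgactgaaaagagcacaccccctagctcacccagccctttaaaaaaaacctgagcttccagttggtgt
Ube2l6 (chr2:84798678-84798827, plus strand): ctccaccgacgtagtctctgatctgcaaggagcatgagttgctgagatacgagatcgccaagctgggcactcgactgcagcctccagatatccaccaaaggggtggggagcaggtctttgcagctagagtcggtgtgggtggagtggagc
Apol11b had 1 match, 50 bases before its start. Rsad2 had 1, Oas1a 2, Isg15 3 and Ifit1 2, and Ube2l6 had 0. Among all 27025 genes of the RefSeq promoter table, 1.85% had a match in this window, and among tested genes with an entry 1.68%. Among tested antiviral effectors it was 15 of the 36 with an entry, among interferon-induced GTPases 8 of 9, among MHC class I genes 2 of 20, and among cholesterol synthesis genes 0 of 15. These are matches of letters and say nothing of binding.

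Apol11b (ENSMUSG00000091694, chr15:77633946-77643286 on GRCm38, minus strand, protein-coding) was a gene of very low counts. XY- controls held 5 to 38 of its reads per library and XY- stressed mice 10 to 27, while XY-Sry controls held 1 to 13 and XY-Sry stressed mice 1 to 5. In CPM the lowest, median and highest values were 0.0746, 0.211 and 0.507 in XY- controls, and 0.137, 0.219 and 0.334 in XY- stressed mice. With testes they were 0.0124, 0.0208 and 0.123 in controls and 0.0109, 0.014 and 0.0412 in stressed mice. Nearly all testes libraries were low; XY-Sry control replicates 37 (0.122 CPM) and 47 (0.123 CPM) overlapped with XY- control replicates 19 (0.0746 CPM) and 36 (0.109 CPM), and the stressed groups did not overlap, as for 0.144% of all genes on the lower side. The edgeR log2 fold change was -3.06 (SE 0.439), with an adjusted p of 0.00441. Without XY- control replicate 44, which had the highest value, the log2 fold change of Apol11b was -2.98 and the adjusted p 0.09. Within cohorts 1 and 3 its log2 fold change was -3.83 and -3.36 with adjusted p of 0.722 and 0.569, and in cohort 2 it did not pass the filter on low counts. Within cohort 2, which held only 2 ovaries libraries, another gene passed, 1 of 19347 (0.00517%): Gm10222, named after its value was seen, with -3.86. Over all 3 cohorts Gm10222 had 0.397, 1.34 and 15.1 CPM as the lowest, median and highest with ovaries. With testes it had 0.561, 1.11 and 2.85, so the groups overlapped and the medians lay close together. DESeq2 called 8 of 19909 genes (0.0402%), Apol11b among them, all lower with testes.

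**Figure D1:**
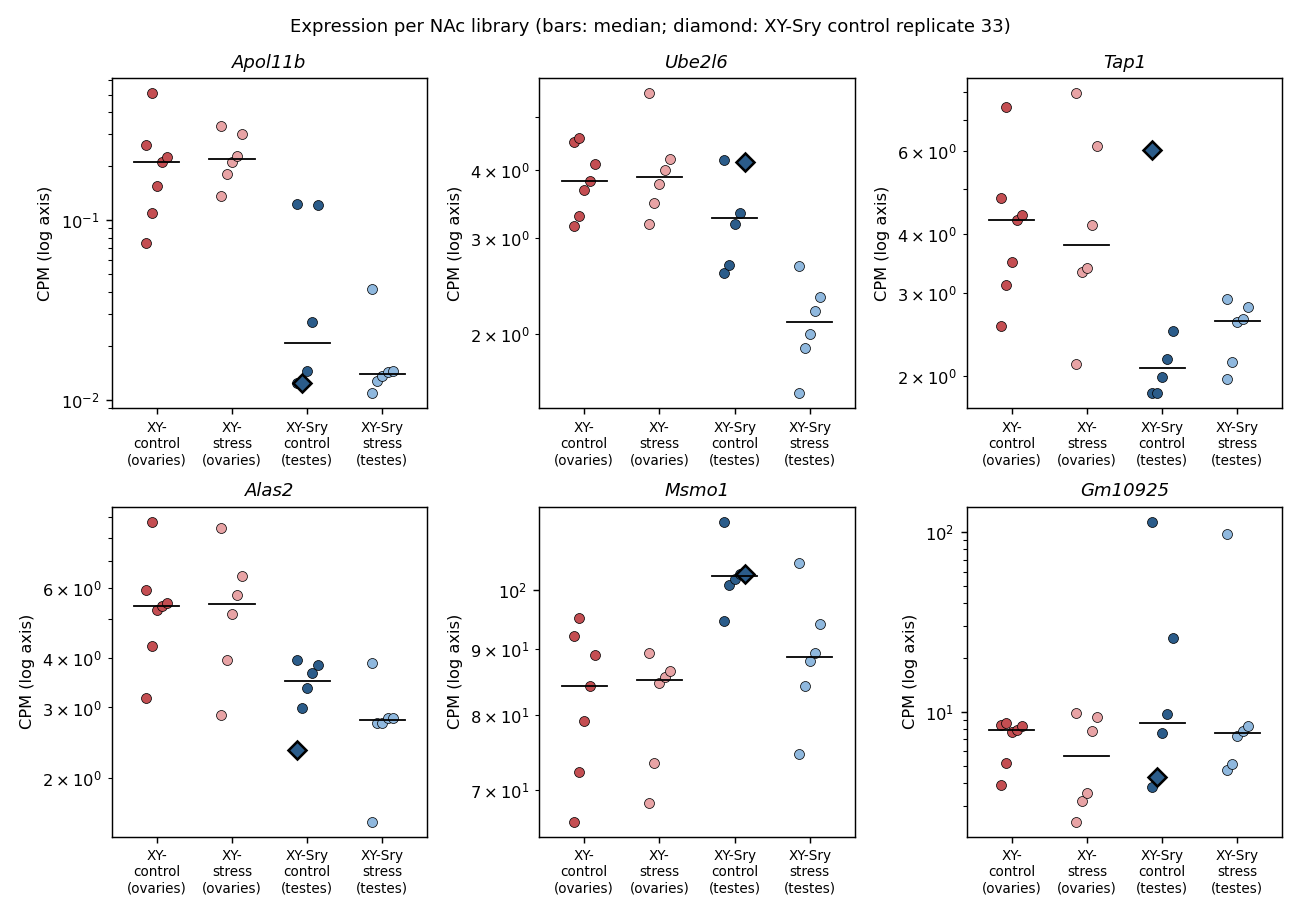
CPM of 6 genes in each of the 25 NAc libraries on log axes, by genotype and treatment, with the group median as a bar and XY-Sry control replicate 33 as a diamond. Apol11b is near 0.014 CPM in most testes libraries, Ube2l6 separates the stressed groups (1.56 to 2.67 against 3.18 to 5.52 CPM), Msmo1 nearly separates the control groups (94.6 to 113 against 66.1 to 95.1 CPM), and Gm10925 is high in 3 testes libraries.

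Antiviral effectors are the interferon-induced genes that block viral entry, RNA and protein synthesis. Of the 50 on the list, 48 were tested and 0 passed the adjusted threshold, but 47 had log2 fold changes below 0 with testes and 38 had an unadjusted p below 0.05, all in that direction, beside 6.14% of all genes. The list's median log2 fold change was -0.89, against -0.0079 over all genes, of which 52.4% were below 0. The level of the list, its members' log2 CPM averaged within each library, was lowest 0.34, median 0.7 and highest 2.67 in testes libraries, and 0.39, 1.7 and 2.55 in ovaries libraries. All testes libraries but XY-Sry control replicate 33 lay at or under 1.07, while 3 of the 13 ovaries libraries (XY- control replicates 16 at 0.39 and 19 at 0.98, and XY- stress replicate 15 at 0.75) lay as low. The groups therefore overlapped at both ends. The difference of the levels was -0.79, -0.94 and -0.97 in cohorts 1, 2 and 3, where cohort 2 held only 2 ovaries libraries.

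Rsad2, which encodes the antiviral enzyme viperin, had 2.09, 5.15 and 7.71 CPM as the lowest, median and highest values with ovaries and 1.32, 2.05 and 6.9 with testes. The edgeR log2 fold change was -1.10 (SE 0.257), with an adjusted p of 0.433. Ifit1, which binds foreign RNA caps, had 1.47, 10.2 and 26 CPM with ovaries and 2.15, 2.94 and 24.1 with testes, and a log2 fold change of -1.61 (SE 0.496). In both genes the groups overlapped widely, with low libraries among ovaries and a high one among testes. Isg15, a ubiquitin-like modifier, had 0.58, 2.07 and 7.93 CPM with ovaries and 0.41, 0.736 and 5.63 with testes, with a log2 fold change of -1.64 (SE 0.486). Usp18, which removes that modifier, had a log2 fold change of -1.77 (SE 0.466), and Oasl2, an oligoadenylate synthetase-like protein, one of -1.92 (SE 0.6). The oligoadenylate synthetase genes Oas1b (-1.47) and Oas1g (-2.74), the dynamin-like GTPases Mx1 (-1.85) and Mx2 (-1.03), and the nucleic acid sensor Zbp1 (-1.78) had log2 fold changes of the same sign. Of these, Oas1b and Mx2 are annotated as polymorphic pseudogenes. Oas1g rested on 0 to 42 reads per library, and the Oas1 genes share sequence, so reads could be split between them.

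The highest testes value of these genes came from the same library, XY-Sry control replicate 33. It held 24.1 CPM of Ifit1 against at most 6.3 in the other XY-Sry controls, 55.4 CPM of Oasl2 against 5.88, and 7.79 CPM of Usp18 against 1.34. Its level was the highest of all 25 libraries on the lists of antiviral effectors, GTPases, interferon signalling factors, nucleic acid sensors and complement, and on the markers of microglia, border macrophages and monocytes, and astrocytes, whereas Apol11b had 1 read there (0.0125 CPM). In the prefrontal cortex (PFC) of this mouse the antiviral effector level was 1.36, rank 2 of 25, where the other testes libraries had at most 1.05. Without this library, 37 of 19487 genes passed (0.190%), all lower with testes; 19 were members of the 3 interferon lists and 10 of the MHC class I list. The log2 fold changes were then -2.25 for Mx1 (adjusted p = 0.0106), -2.08 for Usp18 (0.0113), -1.90 for Isg15 (0.0297), -1.24 for Rsad2 (0.0106) and -2.37 for Oasl2 (0.017), all by edgeR. The antiviral median was then -1.07, and 41 of 48 members had an unadjusted p below 0.05 on the lower side, beside 6.74% of all genes. Of the 25 fits that each left out 1 library, this was the only one above 1 call. Replicate 33 was singled out by its high values of these same genes, so the calls without it are no separate support.

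**Figure D2:**
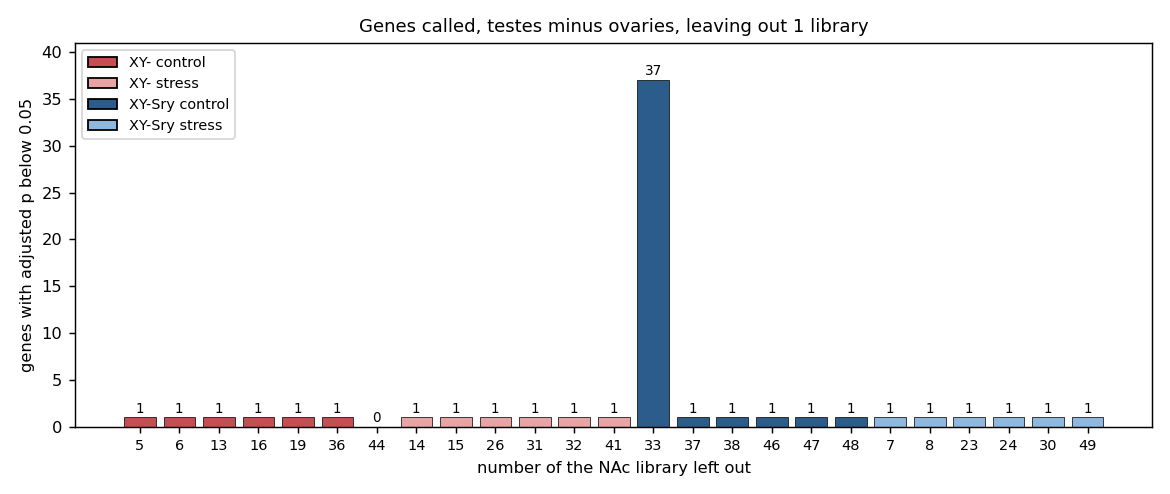
Number of genes with an edgeR adjusted p below 0.05 (vertical axis) in the testes minus ovaries comparison when the NAc library numbered on the horizontal axis was left out, coloured by group. The count was 37 without XY-Sry control replicate 33, 0 without XY- control replicate 44, and 1 in the other fits.

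**Figure D3:**
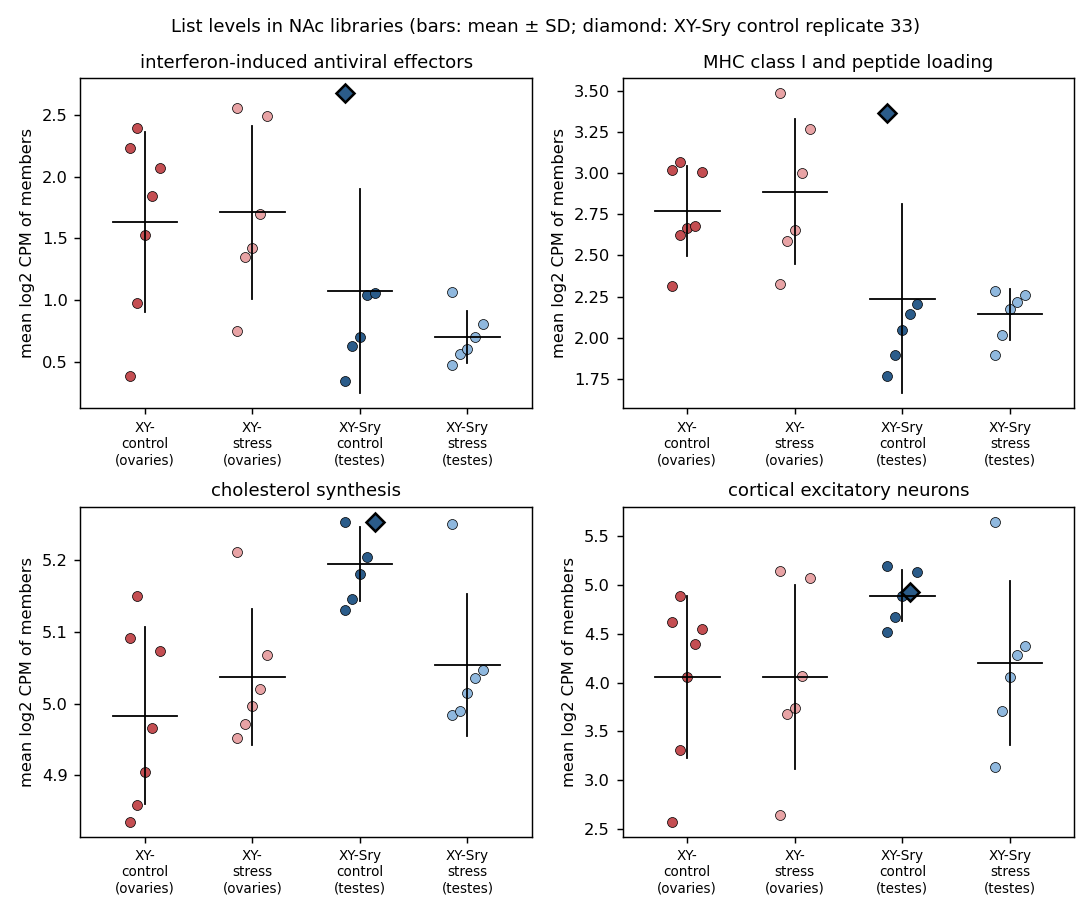
Mean log2 CPM of the members of 4 lists in each NAc library, by genotype and treatment, with mean ± SD. Replicate 33 (diamond) stands at 2.67 on the antiviral list and 3.37 on the MHC class I list, above the other testes libraries; on the cholesterol list the 6 XY-Sry controls lie at the upper end of the range.

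Interferon-induced GTPases guard cells against pathogens within vacuoles. Of 18 on the list, 16 were tested, 0 passed, 15 had log2 fold changes below 0 (52.4% of all genes did) and 13 an unadjusted p below 0.05 on that side (6.14% of all genes did), with a median of -0.69. Gm4951 had 0.356, 1.74 and 3.91 CPM as the lowest, median and highest with ovaries and 0, 0.188 and 3.39 with testes, and an edgeR log2 fold change of -2.92 (SE 0.68) with an adjusted p of 0.433. Its 3.39 CPM came from replicate 33, and the highest of the other XY-Sry controls was 0.5. Iigp1 had a log2 fold change of -1.32, Gbp3 -0.79, Igtp -0.69 and Irgm1 -0.57.

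Among the 17 interferon signalling factors, which carry the signal from receptor to promoter, 0 passed, 13 were below 0 (beside 52.4% of all genes) and 6 had an unadjusted p below 0.05 on that side (beside 6.14%), with a median of -0.18. Irf7, the factor that amplifies interferon production, averaged 2 ± 2.51 CPM in the 12 testes libraries (SD) and 4.52 ± 2.91 in the 13 ovaries libraries (SD), a log2 fold change of -1.54 (SE 0.486). Irf9 had -0.57 and Stat2 -0.23. Of the 14 nucleic acid sensors and adaptors tested, 11 were below 0 and 4 had an unadjusted p below 0.05 on that side, beside the same 52.4% and 6.14%, led by Ddx58, the RNA sensor RIG-I, at -0.69 (SE 0.204). Tlr7, an endosomal RNA sensor that lies in the X segment reported on the Y- chromosome, averaged 7.85 ± 2.11 CPM with testes and 8.22 ± 2 with ovaries, a log2 fold change of -0.08 (SE 0.137), and its sign turned within cohort 1 (0.23).

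MHC class I genes encode the peptide-presenting molecules and the proteins that cut, carry and load peptides. Of 27 on the list, 25 were tested, 0 passed, 24 were below 0 and 18 had an unadjusted p below 0.05 on that side, beside 52.4% and 6.14% of all genes, with a median of -0.52. Tap1, a subunit of the peptide transporter, had 2.12, 4.19 and 7.96 CPM as the lowest, median and highest with ovaries and 1.84, 2.33 and 6.05 with testes; the 6.05 was replicate 33 and no other testes library exceeded 2.91. The edgeR log2 fold change was -0.91 (SE 0.201), with an adjusted p of 0.433, and -1.03 (adjusted p = 0.00908) without replicate 33. The class I heavy chain H2-Q7 had 0.227, 0.55 and 2.64 CPM with ovaries and 0, 0.0804 and 1.06 with testes. Every testes library but replicate 33 lay at or under 0.152 CPM, below all ovaries libraries; with that library left out, 3 of 19425 genes (0.0154%) separated in this direction and 0 (0%) in the other. The edgeR log2 fold change was -2.77 (SE 0.729), with an adjusted p of 0.433, and -3.48 (adjusted p = 0.00324) without that library. That library was singled out by its values of such genes, so the results without it are no separate support. H2-Q6 had a log2 fold change of -2.22, H2-Q4 -1.10, H2-D1 -0.85, H2-T24 -0.80, H2-K1 -0.76 and H2-T22 -0.35. B2m, the light chain shared by these molecules, had -0.62 (SE 0.238), Psmb8, an immunoproteasome subunit, -0.70, and Nlrc5, the transactivator of class I genes, -1.39. Class I genes share sequence, so values of single members are uncertain.

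Chemokines and complement genes lay on the same side. Of 16 chemokines tested, 14 were below 0 and 6 had an unadjusted p below 0.05 on that side, beside 52.4% and 6.14% of all genes (median -0.46), led by Ccl5 (-3.34, SE 0.973) and Cxcl10 (-2.77, SE 0.967), which attract lymphocytes. Ccl5 was at most 0.148 CPM in stressed testes libraries and was 1.4 CPM in replicate 33. With ovaries it had 0, 0.361 and 2.2 CPM as the lowest, median and highest, so the groups overlapped. Of 13 complement genes, 10 were below 0 and 5 had an unadjusted p below 0.05 on that side (median -0.35), beside the same 52.4% and 6.14%. C4b was at -0.73 (SE 0.251) and C1qb at -0.38 (SE 0.143). Microglial markers had a median of -0.20, with 12 of 14 below 0 and 2 at an unadjusted p below 0.05 on that side, beside 52.4% and 6.14% of all genes. Their summed CPM ran from 337 to 572 with ovaries (median 457) and from 388 to 608 with testes (median 415), with none of the markers at 0 in all libraries. The part of microglial number in the interferon genes was not tested. Markers of T, NK and B lymphocytes summed to 15.3 to 42.1 CPM with ovaries (median 34.6) and 24.4 to 62.7 with testes (median 34.4). Only 3 of the 14 listed markers were measured, and 2 of these had log2 fold changes below 0.

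Genes of red blood cells ran the same way. Alas2, the erythroid enzyme that starts heme synthesis, had 2.87, 5.41 and 8.78 CPM as the lowest, median and highest with ovaries and 1.55, 2.91 and 3.95 with testes. The groups overlapped at 3 ovaries libraries (XY- control replicate 36 and XY- stress replicates 26 and 31). The edgeR log2 fold change was -0.83 (SE 0.174), with an adjusted p of 0.433, and -0.60, -0.93 and -0.96 within cohorts 1, 2 and 3. Hbb-bs had -0.67, Hbb-bt -0.70 and Hba-a1 -0.37, and 6 of the 7 blood cell genes tested were below 0, beside 52.4% of all genes. The level of the whole blood list differed by 0.71 in cohort 1 and by -1.34 and -0.66 in cohorts 2 and 3, so its sign was not the same in all cohorts. Collagen chains, made by vessel and meningeal cells, had 15 of 20 below 0 and 5 at an unadjusted p below 0.05 on that side, beside 52.4% and 6.14% of all genes (median -0.25), including Col3a1 (-0.61) and Col4a2 (-0.34). The level of the collagen list differed by -0.12, 0.10 and -0.36 in cohorts 1, 2 and 3, so its sign turned in cohort 2. The remaining low-ranked p-values included Sh3bp2, an adaptor of immune receptor signalling (-0.41), Tcirg1, a proton pump subunit (-0.50), Nfkb1, a subunit of NF-kB (-0.21), Ramp2, a co-receptor of the vascular peptide adrenomedullin (-0.29), Pbxip1 (-0.20) and the predicted gene Gm14169 (-0.26).

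Cholesterol synthesis genes, which supply sterol to membranes and myelin, were the group with most members on the higher side. All 21 were tested, 0 passed, 18 had log2 fold changes above 0 with testes and 8 an unadjusted p below 0.05 on that side, beside 4.79% of all genes, with a median of 0.13. Msmo1, which demethylates sterol intermediates, had 66.1, 84.2 and 95.1 CPM as the lowest, median and highest in XY- controls and 94.6, 102 and 113 in XY-Sry controls. These control groups overlapped only at their edges. In stressed mice it had 68.4, 85.2 and 89.3 CPM with ovaries and 74.6, 88.7 and 105 with testes, which overlapped more widely. Over both treatments Msmo1 had an edgeR log2 fold change of 0.26 (SE 0.0626) with an adjusted p of 0.433. Hmgcs1, an early enzyme of the pathway, had 0.29, Sqle 0.22 and Sc5d 0.17. Cortical excitatory markers ran in the same direction as this list: 9 of 10 were above 0 with a median of 0.53, where 52.4% of all genes were below 0. Of these 10, 0 had an unadjusted p below 0.05 on either side. In controls the summed CPM of these markers had medians of 729 with testes and 483 with ovaries. With the cortical marker level in the model, the cholesterol median was 0.07 with 5 of 21 at an unadjusted p below 0.05 on the higher side, beside 3.36% of all genes in that fit.

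**Figure D4:**
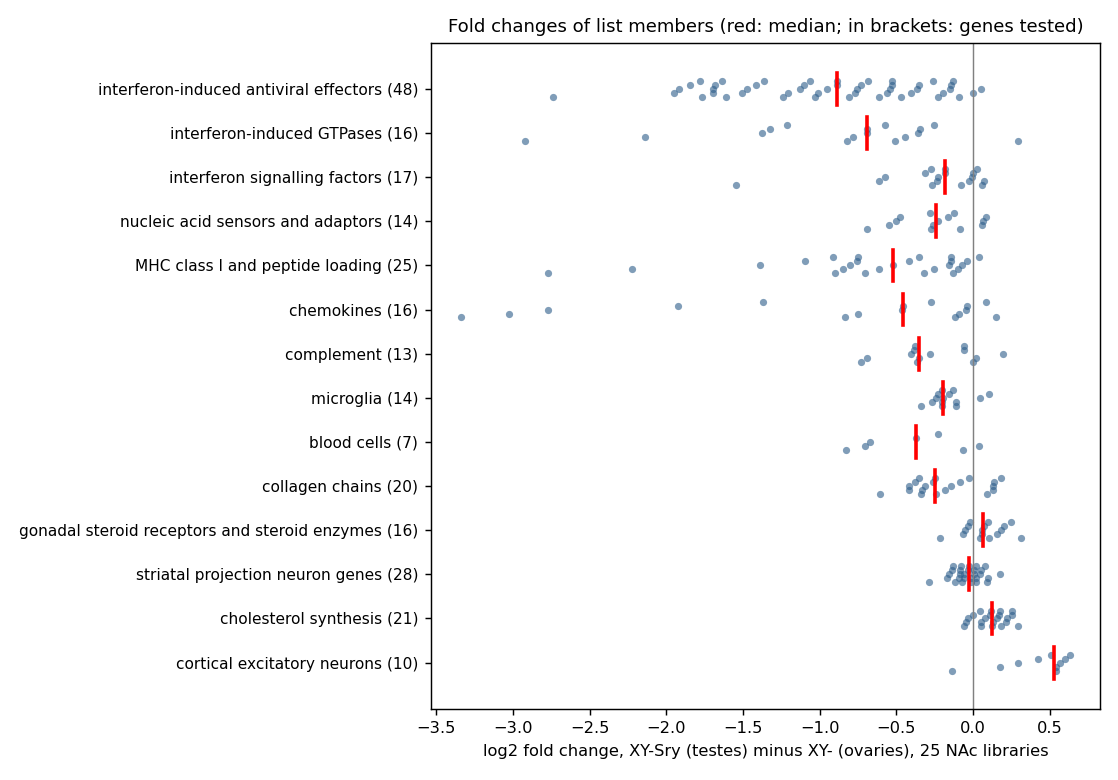
Log2 fold change of each tested member of 14 lists, testes minus ovaries, over the 25 NAc libraries, with the median of each list in red and the number tested in brackets. Antiviral effectors spread from -2.74 to 0.05, whereas striatal projection neuron genes lie between -0.29 and 0.18.

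Of 16 steroid receptor and steroid enzyme genes tested, which carry or make the gonadal hormone signal, 0 passed and 1 had an unadjusted p below 0.05 on the higher side, a share near the 4.79% of all genes, and the median was 0.07. Pgr, the progesterone receptor, averaged 42 ± 4.95 CPM in the 12 testes libraries (SD) and 38.1 ± 4.7 in the 13 ovaries libraries (SD), a log2 fold change of 0.18 (SE 0.0675). Striatal projection neuron genes had a median of -0.03 over both treatments with 0 of 28 at an unadjusted p below 0.05, but opposite signs within them: -0.26 in controls and 0.22 in stressed mice, described with the treatments. Myelin genes had a median of -0.03 with 0 of 14.

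Gm10925, annotated as an unprocessed pseudogene, was also above 0 among the first 20, with an edgeR log2 fold change of 2.11 (SE 0.537) with an adjusted p of 0.433. Ovaries libraries had 2.44, 7.84 and 9.8 CPM as the lowest, median and highest, and testes libraries 3.79, 7.71 and 114. The medians lay close together, and the high values were those of XY-Sry control replicates 38 (114 CPM) and 48 (25.8 CPM) and XY-Sry stress replicate 24 (97.5 CPM).

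The comparison was then made within each treatment. In controls 0 of 19425 genes passed (0%), with 1070 lower (5.51%) and 1045 higher (5.38%) at an unadjusted p below 0.05 and a smallest edgeR adjusted p of 0.405. Among the smallest p-values were those of Gm14169 (-0.37) and Tenm3, a teneurin adhesion protein (0.41). All testes controls lay below all ovaries controls for 0.144% of genes and above them for 0.103%. Without XY- control replicate 44 the controls gave 66 calls, 30 higher and 36 lower, and 0 in each of the other 24 fits that left out 1 library.

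In stressed mice 2 of 19425 genes passed (0.0103%), Apol11b and Ube2l6, both lower with testes, with 848 lower (4.37%) and 557 higher (2.87%) at an unadjusted p below 0.05. Ube2l6 (ENSMUSG00000027078, chr2:84798828-84810335, plus strand, protein-coding) encodes the enzyme that passes ISG15 to its targets. It had 3.18, 3.88 and 5.52 CPM as the lowest, median and highest in XY- stressed mice and 1.56, 2.1 and 2.67 in XY-Sry stressed mice. These groups did not overlap, as for 0.144% of genes on the lower side and 0.0824% on the higher, whereas controls had 3.16, 3.82 and 4.58 CPM against 2.59, 3.26 and 4.17 and did. Its log2 fold change was -0.93 in stressed mice (SE 0.158, edgeR adjusted p = 0.0348) and -0.21 in controls (adjusted p = 0.619). The stressed fold change of Apol11b was -3.66 (SE 0.605, adjusted p = 0.0348). Both calls were lost in 15 of the 25 fits that left out 1 library.

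Median log2 fold changes in controls and stressed mice were -0.59 and -1.16 for antiviral effectors, -0.55 and -0.74 for GTPases, -0.40 and -0.63 for MHC class I, -0.13 and -1.09 for chemokines, and 0.22 and 0.02 for cholesterol synthesis. The control medians depended on XY-Sry control replicate 33: without it they were -1.01 for antiviral effectors, -0.87 for GTPases, -0.61 for MHC class I and -0.27 for chemokines. In controls, members of the 3 interferon lists with an unadjusted p below 0.05 on the lower side numbered 9 of 81 with it and 56 without it. MHC class I members numbered 5 of 25 and 17, and the shares of all genes were 5.51% and 6.27%. That library was singled out by its values of these genes. In stressed mice 49 interferon and 17 MHC class I members did so, beside 4.37% of all genes. With the cortical marker level in the edgeR model, interferon members numbered 1 in controls and 49 in stressed mice, beside 466 and 974 of all 19425 genes. The test of the difference between treatments, the gonad by stress interaction, called 0 of 19425 genes (0%), with 736 below 0 (3.79%) and 703 above 0 (3.62%) at an unadjusted p below 0.05. DESeq2 called 34 of 16438 genes (0.207%), 15 above and 19 below 0, Ltbp1 among them. For Ube2l6 the interaction was -0.72 (adjusted p = 0.41) and for Apol11b -1.17 (adjusted p = 0.824). The smallest p-values were those of Ltbp1, which binds latent TGF-beta (-0.82, SE 0.143, adjusted p = 0.0988), Trpc5, a cation channel (-1.11, SE 0.202, adjusted p = 0.0988), and Mei4, a meiotic recombination factor (0.99, SE 0.201, adjusted p = 0.26), all by edgeR. Ltbp1 had 3.66 to 4.97 CPM in XY- controls and 5.37 to 6.63 in XY-Sry controls, but 4.36 to 6.68 and 3.83 to 5.07 in the stressed groups.

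Striatal projection neuron genes, which mark the main neurons of the NAc, had opposite signs in the 2 treatments. In controls 27 of 28 were below 0 and 10 had an unadjusted p below 0.05 on that side, beside 5.51% of all genes. In stressed mice 24 were above 0 and 4 had an unadjusted p below 0.05 on that side, beside 2.87%. In the interaction the median was 0.44, and 15 of 28 had an unadjusted p below 0.05 above 0, beside 3.62% of all genes; edgeR called 0 of them. Penk, the enkephalin precursor of indirect pathway neurons, named after its values were seen, had 953, 1090 and 1340 CPM as the lowest, median and highest in XY- controls and 718, 846 and 1030 in XY-Sry controls. In stressed mice it had 652, 851 and 1050 CPM with ovaries and 662, 1070 and 1570 with testes. The groups overlapped in both treatments, with ovaries higher by median in controls and testes higher in stressed mice. The DESeq2 interaction of Penk was 0.77 (SE 0.189, adjusted p = 0.0454). The 5 indirect pathway markers had a median of -0.42 in controls and 0.30 in stressed mice. Cortical marker sums had medians of 483 with ovaries and 729 with testes in controls, and 333 and 416 in stressed mice. With the cortical marker level in the edgeR model, 966 genes had an unadjusted p below 0.05 in controls, against 2115 without it. In stressed mice the numbers were 1681 and 1405. The interaction was not fitted with this level, so its part in the opposite signs of the striatal genes was not tested.

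The same gonad contrast in XX mice of the NAc rests on 23 other animals, tested in 1 fit with these 25. There 0 of 19684 genes passed (0%), with 295 lower (1.50%) and 345 higher (1.75%) at an unadjusted p below 0.05. List medians in XX mice were -0.16 for antiviral effectors, -0.20 for GTPases, -0.15 for MHC class I and -0.04 for cholesterol synthesis, against -0.79, -0.65, -0.47 and 0.16 for the XY- background in that fit. Apol11b had -1.21 in XX mice and -2.79 on the XY- background. The gonad by chromosome interaction called 0 genes (0%) and the smallest adjusted p was 1, so no gene was shown to differ between backgrounds by edgeR. At an unadjusted p below 0.05, 303 genes were below 0 (1.54%) and 256 above 0 (1.30%). Those below 0 included 16 members of the 3 interferon lists and 3 of the MHC class I list. The smallest p-values of this interaction included those of Mmrn2 (-0.51) and Klf10 (0.66).

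In the PFC of the same 25 mice, 0 of 18847 genes passed (0%), with 466 lower (2.47%) and 374 higher (1.98%) at an unadjusted p below 0.05. The smallest p there was that of Hpcal1, a neuronal calcium sensor (-0.27, edgeR adjusted p = 0.0762). Antiviral effectors had a median of -0.40 in the PFC and MHC class I genes -0.14. The PFC antiviral level was 0.33, 0.83 and 1.36 as the lowest, median and highest with testes and 0.47, 1.1 and 2.62 with ovaries, which overlapped over most of the range. XY- stress replicate 32 had the 2.62, and ranked 11 of 25 in the NAc. The gonad by region interaction called 0 of 19902 genes (0%), with 754 below 0 (3.79%) and 697 above 0 (3.50%) at an unadjusted p below 0.05. Those below 0 included 7 members of the 3 interferon lists and 5 of the MHC class I list. With the animal as a replicate block it also called 0. There 986 genes were below 0 (4.95%), among them 27 interferon and 10 MHC class I members. Without the block, the smallest p-values were those of Tmem117 (0.38), Gm42608 (0.43) and Inip (0.22).

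**Figure D5:**
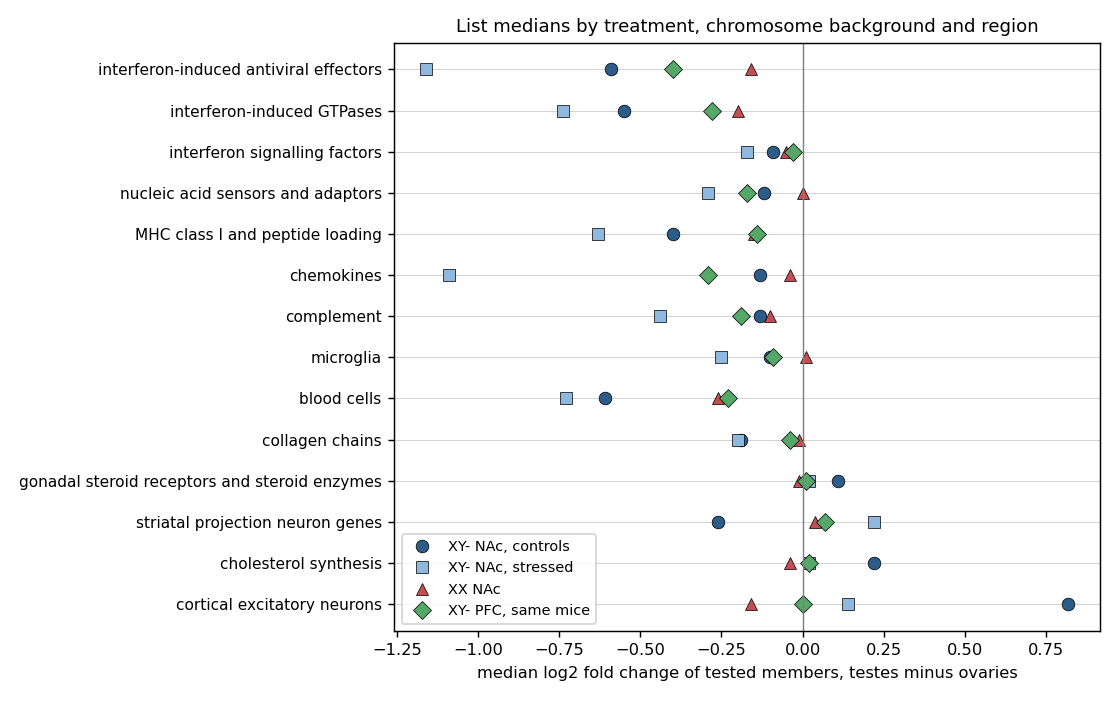
Median log2 fold change, testes minus ovaries, of 14 lists in XY- controls and stressed mice of the NAc, in XX mice of the NAc and in the PFC of the same XY- mice. Antiviral effectors stand at -0.59 and -1.16 in the XY- NAc, -0.16 in XX mice and -0.40 in the PFC; edgeR called 0 genes for the stress, chromosome and region differences over all libraries, and DESeq2 called 34, 1 and 0.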

How the data were processed

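The authors deposited raw read counts per gene, 1 table for each region, per the file headers; the submitters' processing notes list HISAT2 2.2.0, Trimmomatic 0.38 and FastQC 0.11.9 beside DESeq2 and edgeR, and the build GRCm38 (mm10). The sources used here do not give the counting tool, strand setting or annotation, so genes that overlap another on the opposite strand are uncertain (5332 in all; of those named, Alas2, Tap1, H2-T24, H2-T22, Irf7, H2-Q4, Nlrc5, Cxcl10 and Col4a2). Per the labels' protocols, libraries of polyadenylated RNA (TruSeq, 100 ng, 15 cycles) were read as 50 bp pairs on a NextSeq, with about 45 M reads stated. Symbols came from GENCODE M21 (19795 of 19918 IDs found).

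Counts were tested with edgeR 4.0.16 (R 4.3.3; quasi-likelihood, TMM, filterByExpr by genotype and treatment) with gonad, treatment and cohort as terms. Controls, stressed mice and their interaction came from 1 model of 4 groups with cohort; chromosome and region were tested over 48 and 50 libraries. limma 3.58.1, DESeq2 1.42.0 and sva 3.50.0 served alternatives. Scripts were tested on simulated counts. CPM uses TMM library sizes; list levels use a prior count of 0.5. Across 66 pairs of libraries of a group, chi-square per degree of freedom was at least 14.3, so no pair agreed within sampling noise. The animal number in the titles pairs PFC and NAc libraries (median correlation of deviations 0.123; 14 of 25 animals above 0.1).

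Lists and comparisons were chosen with earlier results of these data known. The text names the 20 genes with the smallest p, any member of the interferon, sensor, MHC class I, Y-linked and X-segment lists, up to 6 genes of another list, and the called genes or the 3 smallest p elsewhere. Some genes that this rule selects are not reported here.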

Additional observations from a re-analysis of the deposited data

Results flagged for a closer look

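Of 256 groups of 6 or 7 libraries checked for a sample far from the others (Dixon's criterion), 52 had one, and chance gives about 1 in 20. XY-Sry control replicate 33 accounted for 36. Its mean log2 CPM was 2.67 on the antiviral list, 2.13 on the GTPase list and 3.37 on the MHC class I list. In CPM it had 6.9 of Rsad2, 2.44 of Oas1b, 0.513 of Oas1g, 5.55 of Mx2, 24.1 of Ifit1, 5.63 of Isg15, 7.79 of Usp18, 4.89 of Mx1, 55.4 of Oasl2 and 1.04 of Zbp1. Among GTPases it had 3.39 CPM of Gm4951, 22.5 of Irgm1, 9.69 of Igtp, 9.06 of Iigp1 and 18.1 of Gbp3. Among signalling factors and sensors it had 9.89 CPM of Irf7, 31.4 of Irf9, 46.3 of Stat2 and 19.2 of Ddx58. Among MHC class I genes it had 6.05 CPM of Tap1, 3.5 of H2-T24, 41.4 of H2-K1, 55.8 of H2-D1, 6.62 of H2-Q4, 4.1 of H2-Q6, 1.06 of H2-Q7, 175 of B2m, 5.75 of Nlrc5 and 5.62 of Psmb8. Ccl5 had 1.4 CPM there, Cxcl10 3.15, C4b 91.1 and C1qb 49.7. These genes belong to the same pathways, so the flags are not independent.

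The other libraries far from their group were these. Apol11b had 0.507 CPM in XY- control replicate 44 and 0.0412 in XY-Sry stress replicate 24. Gm10925 had 114 CPM in XY-Sry control replicate 38 and 97.5 in XY-Sry stress replicate 24. XY-Sry stress replicate 7 had 0.0435 CPM of Oas1g, 2.22 of Mx2, 8.06 of Gbp3 and 74.2 of Sqle, and a cholesterol synthesis level of 5.25. XY-Sry stress replicate 30 had 2.97 CPM of Rsad2 and 0.635 of H2-Q6, and replicate 23 had 4.58 of Sh3bp2. Mx1 had 4.28 CPM in XY- control replicate 36, and Cxcl10 had 3.3 in XY- stress replicate 41. The blood cell level was 1.92 in XY-Sry control replicate 38, and XY-Sry control replicate 47 held 106.1 M counts.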

How the results depend on the processing

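The count of 1 gene between testes and ovaries was 0 with a stricter filter on low counts, 0 over all 48 libraries, 0 within cohort 1 and 0 within cohort 3; DESeq2 gave 8, all lower (Apol11b, Gm4951, Alas2, Oas1g, Tap1, Sh3bp2, Oas1b and H2-T24). Leaving out each replicate gave 0 to 37. Apol11b reached at most 0.507 CPM, so the stricter filter (at least 1 CPM in 12 libraries) removed it and could not call it. In controls DESeq2 gave 14 and leaving out each replicate 0 to 66. In stressed mice DESeq2 gave 3 (Apol11b, Ube2l6 and Oas1g), the stricter filter 0, the cortical marker level as a covariate (chosen after seeing the data) 0, and leaving out each replicate 0 to 2. The gonad by stress interaction gave 34 with DESeq2 and 0 to 2 without 1 replicate. The gonad by chromosome interaction gave 1 with DESeq2, 4930467D21Rik, a gene of few reads. Interferon list members called numbered 3 with DESeq2 and 0 to 19 without 1 replicate, and MHC class I members 2 and 0 to 10. Tlr7 changed sign within cohort 1 (0.23) and without XY- stress replicate 41 (0.01); leaving out each replicate gave -0.16 to 0.01. Other than the removal of Apol11b by the stricter filter, the causes of these changes were not tested. With the animal as a replicate block, pairing both regions, the gonad by region interaction gave 0 calls, as without it. Members below 0 at an unadjusted p below 0.05 rose with the block, from 7 to 27 for the interferon lists and from 5 to 10 for MHC class I. The shares of all genes were 3.79% and 4.95%. Apol11b rested on 1 to 38 reads per library, which limits its precision.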
